A study of Saccharomyces cerevisiae with 9 samples.

Results

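A divergent promoter is the stretch of DNA between neighbouring genes that are read away from each other, so that it lies upstream of both. The divergent promoters of budding yeast were examined in a chromatin immunoprecipitation sequencing (ChIP-seq) study of Rvb1 and Rvb2, for how much of each protein was recovered there. Members were chosen from systematic gene names alone, in which the number counts genes outward from the centromere and the letter W or C gives the strand. On a right arm a C gene followed by a W gene, and on a left arm a W gene followed by a C gene, point away from each other. Under that rule 3188 of the 7036 promoter windows of 500 bp in the deposited count table were members, in 1594 pairs, and no window belonged to 2 divergent pairs. The comparison set was the 2742 windows whose upstream neighbour lies on the same strand, from 2742 tandem pairs, and the remaining 1106 windows were chiefly of genes with a suffixed or non-standard name. A tandem pair can share a gene with a divergent pair, and 1403 divergent windows belonged to genes whose other neighbour formed a tandem pair with them.

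Most budding yeast promoters hold a nucleosome-depleted region that is flanked by nucleosomes rich in the histone variant H2A.Z. A divergent promoter may have a single such region that serves both genes, as between the GAL1 and GAL10 genes of galactose use or the paired core histone genes. Rvb1 and Rvb2 are AAA+ ATPases that assemble into rings and are subunits of INO80, a nucleosome-remodelling complex, and of SWR1, the complex that places H2A.Z beside promoters. They also act in R2TP, a chaperone complex that takes part in snoRNP and polymerase assembly.

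The cells were W303 budding yeast in log phase at 30 °C, moved into synthetic medium without glucose for 10 min. Cells carrying a TAP tag, a protein tag that binds IgG, on Rvb1, on Rvb2 or on the glycolytic enzyme Pgk1 were lysed and sonicated, and the tagged protein was pulled down with rabbit IgG. Each tagged protein gave 2 pulldown libraries and 1 input library of sheared chromatin, which makes 9 libraries, all from starved cells. Pgk1 served as the control protein, and no library from glucose-fed cells or from an untagged strain was analysed here. The labels do not say whether replicate pulldowns came from separate cultures, so the p-values below measure only the spread between these samples, which may be technical.

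Promoter windows held 806134 to 2516799 counts in the pulldowns and 4342277 to 4636420 in the inputs, and the lowest total was that of Pgk1 pulldown 1. The highest window held 1148 counts in every library, whatever its total, so the counts have a ceiling. The median divergent window reached 8.45% to 29.9% of it among the pulldowns and 53.6% to 57.1% among the inputs. Whether this narrows the differences between windows in the inputs was not tested. The input of the Pgk1-tagged cells differed from the other 2 inputs at auxotrophic marker genes: its gene-body counts were 8 at URA3 against 615 and 687, 8 at LEU2 against 662 and 726, and 7 at MET17 against 650 and 702, although every library is labelled W303. Of the divergent windows, 12 differed by at least 1.5-fold between the Pgk1-strain input and the mean of the other inputs, 10 of them higher in the Pgk1-strain input, and 6 of the 12 were called different in the comparison of Rvb1 with Pgk1 below. At HXT17 and its divergent partner YNR071C, the Rvb1-strain and Rvb2-strain inputs held 0 to 3 counts and the Pgk1-strain input held 473 and 624. At these windows the recovery of a protein and the difference between strains cannot be told apart. At the other windows too, each comparison of an Rvb protein with Pgk1 is one between strains, and the input group joins the strains.

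Divergent windows stood higher than same-strand windows in all 4 Rvb pulldowns, and nearly level with them in the Pgk1 pulldowns and the inputs. Levels here are promoter counts scaled to a common library size by TMM, a normalization that evens out library composition, and written as CPM. All windows have the same length, so levels can be set side by side. In the Rvb1 pulldowns the median divergent window held 141 and 137 CPM and the median same-strand window 129 in both. In the Rvb2 pulldowns the medians were 137 and 134 CPM at divergent and 127 and 130.3 CPM at same-strand windows. In the Pgk1 pulldowns they were 129 and 133 CPM against 128 and 133 CPM. The ratio of the divergent to the same-strand median was therefore 1.075 ± 0.028 (SD, n = 2) for Rvb1 and 1.051 ± 0.032 (SD, n = 2) for Rvb2. The control pulldowns of Pgk1 gave 1.007 ± 0.005 (SD, n = 2), and 1.008 ± 0.003 (SD, n = 3) was found in input chromatin. All 4 Rvb libraries lay above all 5 others, and the difference between these sets was 0.0555 (two-sided exact permutation test over libraries, p = 0.0159, the smallest that 4 against 5 libraries allow). That set of 5 includes the 3 inputs, which are not pulldowns, and the set of 4 joins 2 proteins. The members and the tests were chosen with earlier results of these data known. The p-values of these tests thus describe these libraries and are not independent support. Against the 2 Pgk1 pulldowns alone the difference was 0.0564 (two-sided exact permutation test, p = 0.133, the smallest that 4 against 2 libraries allow). For either Rvb protein alone against Pgk1, the exact permutation test of 2 libraries against 2 cannot go below p = 0.333, and both stood at that value.

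**Figure D1:**
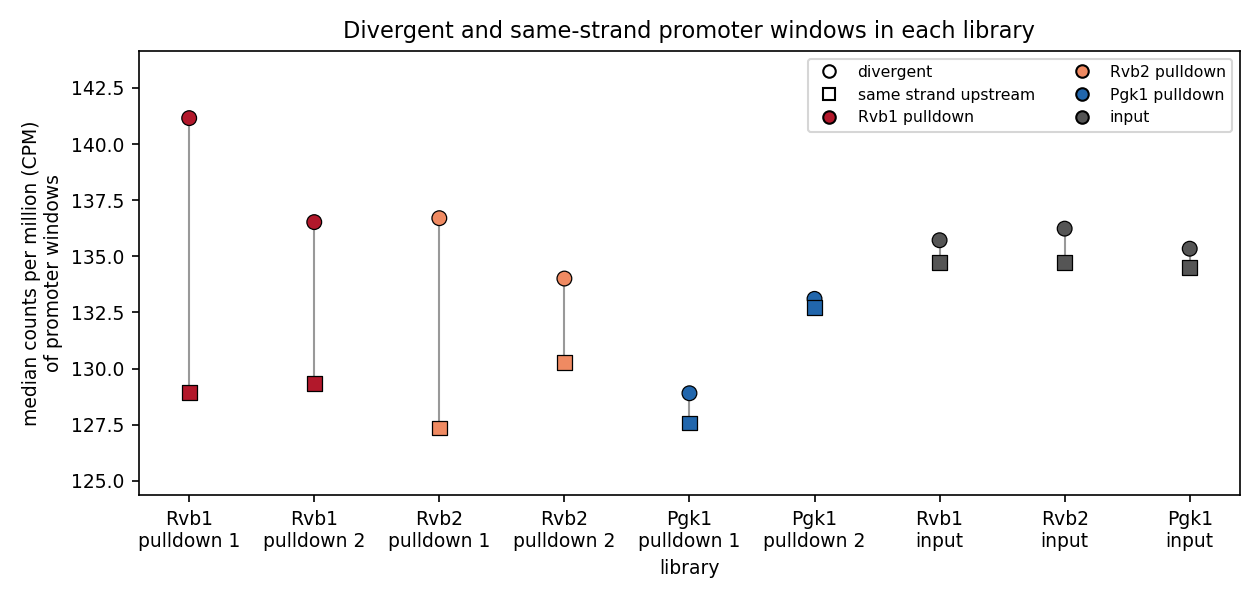
Median CPM (vertical axis, which does not start at 0) of the divergent promoter windows (circles) and the windows with a same-strand gene upstream (squares) in each of the 9 libraries. A reader should see a gap between circle and square in the 4 Rvb pulldowns, widest in Rvb1 pulldown 1 (141 against 129 CPM), and little gap in the Pgk1 pulldowns and the inputs.

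The share of promoter-window counts that fell in divergent windows was higher in all 4 Rvb pulldowns than in both Pgk1 pulldowns, but in only 2 of the 4 was it above the inputs. It was 47.2% and 44.7% in the Rvb1 pulldowns, 45.5% and 44.0% in the Rvb2 pulldowns, 41.6% and 43.9% in the Pgk1 pulldowns and 45.0% to 45.2% in the inputs. Against chromatin itself the share was thus higher in Rvb1 pulldown 1 and Rvb2 pulldown 1 and lower in the other 2 Rvb pulldowns. The windows outside both classes held 22.9% and 18.4% in the Pgk1 pulldowns. They held 16% to 19.2% in the Rvb pulldowns and 16.4% to 16.5% in the inputs. The low divergent share of Pgk1 pulldown 1 thus went with a high share of those remaining windows. Counted by window, all 4 Rvb pulldowns lay above all 5 other libraries at 626 divergent windows (19.6%) and at 349 same-strand windows (12.7%), against 14.9% of all windows. They lay below all 5 at 330 divergent windows (10.4%) and 367 same-strand windows (13.4%), against 12.6% of all windows.

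The promoter-to-body balance differed little between divergent and same-strand genes. The promoter window held 57.5% and 53.4% of a gene's promoter and body counts together in the Rvb1 pulldowns at divergent genes, and 57.2% and 53.0% at same-strand genes. In the Rvb2 pulldowns these shares were 55.3% and 51.9% at divergent genes and 54.8% and 51.7% at same-strand genes. In the Pgk1 pulldowns they were 51.1% and 49.8% at divergent genes and 50.8% and 49.7% at same-strand genes. In the inputs they were 49.5% to 49.7% and 49.3% to 49.5%. Both classes thus had a higher promoter share in every pulldown, Pgk1 included, than in any input, and within each pulldown group the classes differed by less than the replicates did.

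The first question of the design is where Rvb1 was recovered more than the control protein Pgk1. In edgeR's quasi-likelihood test over all 9 libraries with Benjamini-Hochberg adjustment over all windows, 539 divergent windows were higher and 277 lower in the Rvb1 pulldowns, of 3187 tested, at an adjusted p under 0.05. Over all 7034 windows tested, 24.3% were called, 12.3% as higher and 12% as lower. Divergent windows were called at 25.6%, close to that background, but unevenly by direction: 16.9% were higher and 8.69% lower. With the total of promoter and gene-body counts as library size in place of TMM, the split was 791 higher and 182 lower, against 18.7% and 8.3% of all windows under that scaling, and the median log2 fold change of all windows moved from −0.05 to 0.05. Among the same-strand windows 280 were higher and 294 lower, of 2742. The median log2 fold change was 0.04 at divergent windows, −0.06 at same-strand windows and −0.05 at all windows. With that other library size the medians were 0.14, 0.04 and 0.05, so the same-strand median changed sign and the order of the classes stayed. The share of windows above 0 was 54.0% at divergent windows, 44.7% at same-strand windows and 24.6% at the remaining windows. The gap between the divergent and same-strand medians was 0.096 on the log2 scale, with an SD of 0.046 between pulldowns, so the shift of the whole class is small beside that of its leading windows.

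The count rests heavily on Rvb1 pulldown 1: without it 0 divergent windows were called by edgeR (562 at an unadjusted p under 0.05). Without Rvb1 pulldown 2 the count was 1424, which is 44.7% against 44.9% of all windows, and without Pgk1 pulldown 2 it was 254, which is 7.97% against 10.3%. Without any 1 of the 3 inputs it was 363 to 451, which is 11.4% to 14.2% against 10.7% to 13.8%. With each pulldown set against the input of its own strain, edgeR called 0 divergent windows (150 at an unadjusted p under 0.05), while the gap between the class medians stayed near its value at 0.096.

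Windows of pairs whose genes are immediate neighbours in the reference gene table were called higher somewhat more often than divergent windows as a whole. RefSeq's table for assembly R64 matched 2899 of the 3188 members by systematic name, and 1164 of the 1594 pairs (73.0%) were immediate neighbours in it. Their windows were higher in 434 (18.6%) and lower in 145 (6.23%) of 2328 cases, with a median log2 fold change of 0.07. Among all divergent windows 16.9% were higher and 8.69% lower, and among all windows 12.3% and 12%. Where at least 1 gene of the pair is not in the table (286 pairs), 60 windows were higher and 113 lower of 572 (10.5% and 19.8%). Their median was −0.13. Where another gene lies between (142 pairs), 45 were higher and 18 lower of 283 (15.9% and 6.36%). In the 64 of these pairs with a tRNA gene between, 8 were higher and 14 lower of 127 (6.3% and 11%). The pairs not in the table are thus pairs by number, and a window there often faces a gene that the reference does not list.

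Divergent windows at the telomere end of the arms leaned lower. Among divergent windows within the 10 highest numbers of an arm, next to the telomere, 12 were higher and 42 lower of 153, with a median log2 fold change of −0.29. Among those within the 10 lowest numbers, next to the centromere, 24 were higher and 13 lower of 169, with a median of 0.16. Neither share exceeded the 16.9% and 8.69% of all divergent windows. Of all plain-named windows there, 34 were higher and 25 lower of 310. All plain-named windows within the 10 highest numbers leaned lower as well, at 17 higher and 79 lower of 309. The pattern next to the telomere is thus not one of divergent windows alone. The remaining 2865 divergent windows had 503 higher and 222 lower.

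Both windows of a divergent pair moved together far more than those of other neighbours. The windows of a divergent pair can cover some of the same bases, since each reaches back from its own gene into the shared space, so they are not independent measurements. Distances between the gene starts were not used here, because no genome of the build behind the counts was at hand. In the inputs the counts of both windows of a divergent pair differed by a median of 2.01% to 2.28%, against 4.27% to 5.09% in tandem pairs. In the Rvb1 pulldowns the differences were 11.3% and 7.69% in divergent pairs and 41.9% and 21.3% in tandem pairs. In the Rvb2 pulldowns they were 9.65% and 5.63% against 31.5% and 15.3%, and in the Pgk1 pulldowns 7.61% and 3.24% against 19.1% and 6.51%. Divergent pairs were closer in all 9 libraries, the inputs included, which the layout of the windows alone can give, so no test is drawn from it. In 3 divergent pairs both windows had identical counts in every library, namely RQC1 and SWR1, PRS2 and UBC6, and LIN1 and REC104, and no tandem or convergent pair did.

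The log2 fold changes of Rvb1 over Pgk1 followed the same pattern. Within divergent pairs the values of both windows differed by a median of 0.12, against 0.34 in tandem pairs and 0.36 in convergent pairs. Across the 1593 divergent pairs Pearson's r was 0.68, against 0.20 across 2741 tandem pairs, as a description across pairs that share libraries and, in divergent pairs, reads. For the gene bodies, which lie outside the shared space, r was 0.35 in divergent and 0.24 in tandem pairs. Both windows were called higher in 169 divergent pairs and both lower in 56, with 20 called in opposite directions, 181 with 1 window higher, 145 with 1 window lower and 1023 with no call. In tandem pairs the counts were 50 both higher, 51 both lower, 56 opposite, 499 with 1 window higher and 410 with 1 window lower. Same-direction calls at both windows were thus 39.4% of the 571 divergent pairs with any call and 9.47% of the 1066 such tandem pairs. Of the 169 pairs with both windows higher, 148 (87.6%) were immediate neighbours in the reference table, against 73.0% of all divergent pairs.

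**Figure D2:**
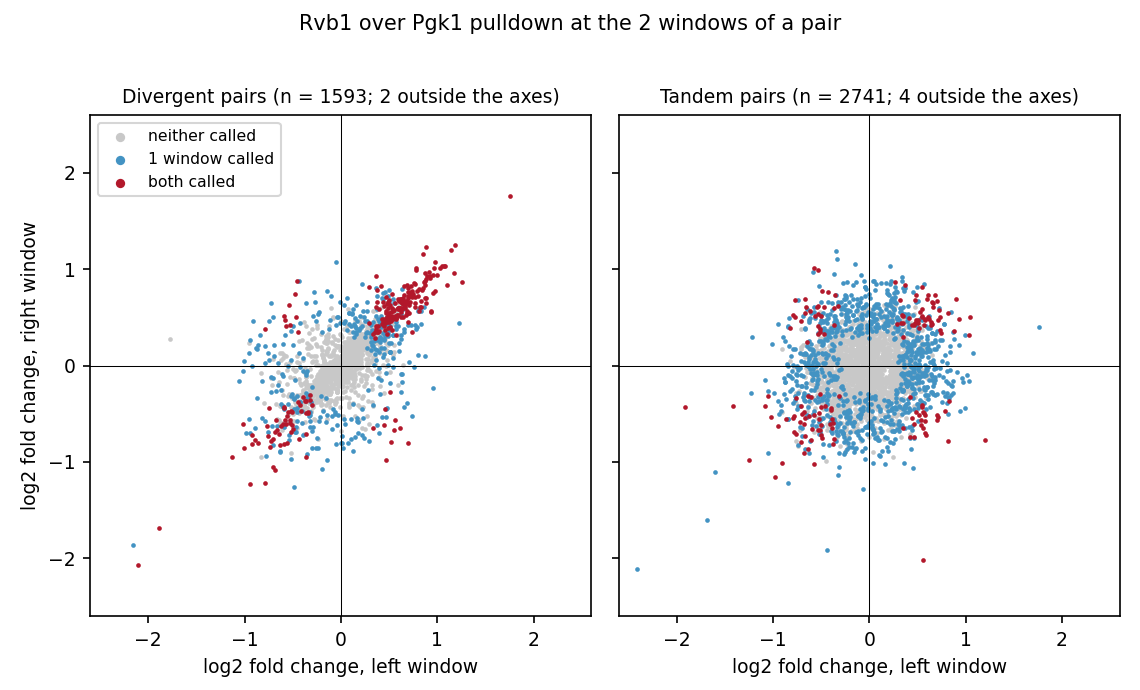
Log2 fold change of Rvb1 over Pgk1 at the left window (horizontal axis) and the right window (vertical axis) of each divergent pair and each tandem pair, 1 point per pair, coloured by how many of its windows were called at an adjusted p under 0.05. Divergent pairs lie along the diagonal (r = 0.68), with a run of pairs called at both windows in the upper right, while tandem pairs form a round cloud (r = 0.20).

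The highest mean log2 fold change of Rvb1 over Pgk1 in any divergent pair was at YLR302C and MET17, at 3.42 and 0.54, where neither window was called (edgeR adjusted p = 0.0596 and 0.265) and the Pgk1-strain input held 7 and 318 counts against 653 to 704 in the other inputs. Among pairs with both windows called, the highest was that of RQC1, a subunit of the ribosome quality control complex, and SWR1, the ATPase that gives the SWR1 complex its name. Its windows had the same counts in every library, so they are 1 measurement: 435 and 383 CPM in the Rvb1 pulldowns, 515 and 254 CPM in the Rvb2 pulldowns, 118 and 123 CPM in the Pgk1 pulldowns and 137, 124 and 129 CPM in the inputs. All 4 Rvb pulldowns stood above all 5 other libraries. The log2 fold change of Rvb1 over Pgk1 was 1.76 (SE 0.32, edgeR adjusted p = 0.013). That of Rvb2 was 1.66 (SE 0.32), with an unadjusted p of 0.000128 and an edgeR adjusted p of 0.188. Only 1 of the gene bodies followed: SWR1 was higher, at a log2 fold change of 1.42 (edgeR adjusted p = 0.027), and RQC1 was at 0.28 (edgeR adjusted p = 0.0546).

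Mitochondrial genes were on both sides of the next promoter, that of MSS51, an activator of COX1 mRNA translation, and QRI5, which acts on the same mRNA. The MSS51 window held 358 and 298 CPM in the Rvb1 pulldowns, 348 and 233 CPM in the Rvb2 pulldowns, 151 and 139 CPM in the Pgk1 pulldowns and 140.0, 139 and 135 CPM in the inputs. The QRI5 window held 376 and 307, 365 and 236, 157 and 132, and 140.5, 136 and 137 CPM in the same groups. The Rvb pulldowns did not overlap the other libraries at either window. The log2 fold changes of Rvb1 over Pgk1 were 1.19 (SE 0.25) and 1.26 (SE 0.27), each at an edgeR adjusted p of 0.015, and here both gene bodies were higher too, at 1.21 and 0.93 (edgeR adjusted p = 0.0252 and 0.0306).

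XRN1, the cytoplasmic 5′ to 3′ exonuclease of mRNA decay, shares its upstream space with NUP49, a nucleoporin. At XRN1 the Rvb1 pulldowns held 304 and 236 CPM, the Rvb2 pulldowns 271 and 185 CPM, the Pgk1 pulldowns 108 and 133 CPM and the inputs 138, 144 and 135 CPM. The Rvb groups lay above the rest, Rvb2 pulldown 2 being the lowest of the 4. The log2 fold change of Rvb1 over Pgk1 was 1.14 (SE 0.23, edgeR adjusted p = 0.0141) at XRN1 and 1.20 (SE 0.25, edgeR adjusted p = 0.015) at NUP49. In the gene bodies only NUP49 passed the test, at 1.04 (edgeR adjusted p = 0.034), with XRN1 at −0.15 (edgeR adjusted p = 0.329).

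UFD2, a ubiquitin chain elongation enzyme, and RBS1, an RNA polymerase III assembly factor, form the next pair. Its windows held 343 and 259 CPM and 311 and 234 CPM in the Rvb1 pulldowns and 125 and 141 CPM and 134 and 144 CPM in the Pgk1 pulldowns, with log2 fold changes of 1.17 (SE 0.28) and 0.97 (SE 0.26). MRPL8, a protein of the mitochondrial large ribosomal subunit, and LAS21, an enzyme of GPI anchor synthesis, have another gene between them in the reference table. The MRPL8 window held 337 and 280.2 CPM against 138 and 123 CPM and the LAS21 window 224 and 196 CPM against 114 and 117 CPM, with log2 fold changes of 1.25 (SE 0.25) and 0.87 (SE 0.15). In this pair the windows differed in level, and both Rvb1 libraries were above both Pgk1 libraries at each, which the choice of pairs required.

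KRE1, a cell wall glucan protein, and VNX1, a vacuolar cation exchanger, stood at log2 fold changes of 1.08 (SE 0.23) and 1.03 (SE 0.24). PHB2, a prohibitin of the mitochondrial inner membrane, and NAS6, an assembly chaperone of the proteasome, stood at 1.07 (SE 0.18) and 1.04 (SE 0.19). TOA1, the large subunit of the general transcription factor TFIIA, and SLK19, a kinetochore-associated protein, stood at 0.88 (SE 0.26) and 1.23 (SE 0.31). These 5 pairs all passed the test at both windows, with edgeR adjusted p-values between 0.013 and 0.0296. They are the highest by mean log2 fold change, with the 3 above, of 168 pairs that had both windows called as higher, mean counts of 20 or more, and both Rvb1 libraries above both Pgk1 libraries. Without Rvb1 pulldown 1 each of these windows kept its direction and none was called.

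Pairs called lower were fewer, and the lowest lie where the inputs differ between strains. SNO4, of the Hsp31 chaperone family, and ERR3, an enolase-related gene, had log2 fold changes of −2.11 (SE 0.64) and −2.07 (SE 0.54). At SNO4 the Rvb1 pulldowns held 35.2 and 33.5 CPM and the Pgk1 pulldowns 155 and 142 CPM, but the inputs of the Rvb1, Rvb2 and Pgk1 strains held 32.9, 36.8 and 145 CPM. With each pulldown set against its own input the SNO4 value was 0.03, above 0. PAU11, a seripauperin gene, and YGL260W behaved likewise, at −1.89 and −1.68, with PAU11 inputs of 39.5, 49.4 and 143 CPM. These genes, and YHR212C and YHR213W at −0.94 and −1.23, lie near chromosome ends among genes with near-identical copies, so their counts are uncertain.

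At PUL3, PUL4, SHQ1 and DPH1 the inputs were alike across strains. PUL3 and PUL4, genes of pulcherrimin use, held 47.4 and 79.0 CPM and 45.9 and 68.7 CPM in the Rvb1 pulldowns, 61.1 and 99.1 CPM and 79.0 and 88.5 CPM in the Rvb2 pulldowns, and 134 and 136 CPM and 90.4 and 122 CPM in the Pgk1 pulldowns. Their inputs held 135, 133 and 131 CPM and 110.2, 115 and 126 CPM. All 4 Rvb pulldowns were below the other 5 libraries at PUL3, and at PUL4 Rvb2 pulldown 2 lay close below Pgk1 pulldown 1. The log2 fold changes of Rvb1 over Pgk1 were −1.13 (SE 0.26, edgeR adjusted p = 0.0165) and −0.95 (SE 0.27, edgeR adjusted p = 0.0268). SHQ1, an assembly factor of H/ACA snoRNPs, and DPH1, an enzyme of diphthamide synthesis, stood at −1.01 (SE 0.31) and −0.86 (SE 0.29). AAD4, a putative aryl-alcohol dehydrogenase gene, and YDL242W stood at −0.79 (SE 0.23) and −1.22 (SE 0.32), with YDL242W inputs of 85.3, 88.1 and 137 CPM.

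**Figure D3:**
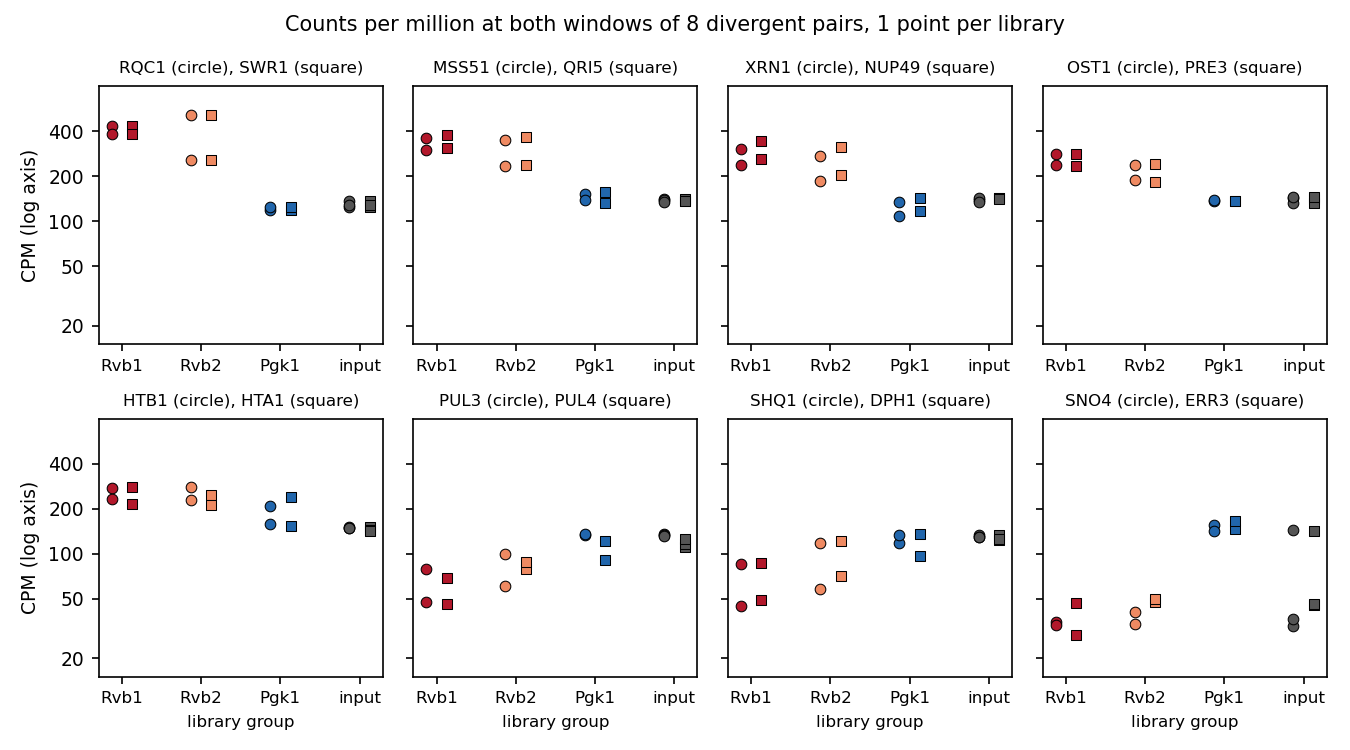
CPM (log axis) at both windows (circle and square) of 8 divergent pairs in the Rvb1, Rvb2 and Pgk1 pulldowns and the inputs, 1 point per library. Rvb points stand above the rest at RQC1 and SWR1, MSS51 and QRI5, XRN1 and NUP49, and OST1 and PRE3, come near Pgk1 pulldown 1 at HTB1 and HTA1, and stand low at PUL3, SHQ1 and SNO4, where 1 input, that of the Pgk1 strain, stands apart at 145 CPM.

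Not every pair moved as a unit. The largest difference within a pair among those named by rule was at YGL034C and HOP2, a meiotic recombination gene. The YGL034C window held 258 and 208 CPM in the Rvb1 pulldowns and 154 and 137 CPM in the Pgk1 pulldowns, a log2 fold change of 0.69 (SE 0.21, edgeR adjusted p = 0.0316). The HOP2 window held 59.6 and 103 CPM and 132 and 142 CPM, a log2 fold change of −0.81 (SE 0.27, edgeR adjusted p = 0.0431). The windows of this pair thus changed in opposite directions. HUL4, a ubiquitin ligase, and YJR037W did the same, at 0.47 (SE 0.14) and −0.98 (SE 0.22). At YGR115C and SPT6, a histone chaperone, and at YDR187C and CCT6, a chaperonin subunit, only the lower window passed the test, at −0.91 and −0.72, with 0.46 and 0.65 at the partners (edgeR adjusted p = 0.069 and 0.0527). Of the 20 pairs with opposite calls, 12 had a gene that the reference table does not list. Further opposite pairs were SAG1 and APL1, at −0.59 and 0.52, and YKR033C and DAL80, a repressor of nitrogen genes, at −0.46 and 0.88. Both of these were chosen after their values were seen.

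Of 12 divergent promoters looked up by name, only that of RQC1 and SWR1 was called over Pgk1 by edgeR, and no window of the other 11 was. Over all windows tested 24.3% were called. The list was chosen with earlier results of these data known. RQC1 and SWR1 are also the highest pair called at both windows, so their place on it is not independent support. The 4 pairs of core histone genes were above the inputs in every Rvb pulldown. At HTB1 the Rvb1 pulldowns held 275 and 233 CPM, the Rvb2 pulldowns 281 and 228 CPM, the Pgk1 pulldowns 209 and 157 CPM and the inputs 151, 148 and 148 CPM, so all pulldowns exceeded all inputs. Over the inputs, Rvb1 was higher at all 8 core histone windows, by 0.59 to 0.78 on the log2 scale (edgeR adjusted p = 0.00901 to 0.0163). Of all windows 25.4% were called higher in that comparison. The control protein Pgk1 was itself above the inputs at 9 of the 10 divergent windows of histone genes, with a median log2 fold change of 0.29 and no edgeR call. Over Pgk1 the 8 windows stood at 0.36 to 0.50 and none passed the test (edgeR adjusted p = 0.116 to 0.265), the 2 Pgk1 pulldowns lying far apart there. Copies of these genes are near-identical in their coding parts, and how the authors' mapping split reads between them is unknown here.

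GAL10 and GAL1, which need galactose to be induced, held 102 and 116 CPM and 87.1 and 108 CPM in the Rvb1 pulldowns and 116 and 135 CPM and 109 and 129 CPM in the Pgk1 pulldowns. The log2 fold changes of both over Pgk1 were −0.27 and −0.36 (edgeR adjusted p = 0.0861 and 0.0593), and over the inputs both fell, by 0.36 and 0.51 (edgeR adjusted p = 0.00811 and 0.00555). SNO1 and SNZ1, genes of vitamin B6 synthesis, stood at −0.47 and −0.48 over Pgk1 (edgeR adjusted p = 0.138 and 0.149), and over the inputs both fell, by 0.72 each (edgeR adjusted p = 0.0133 and 0.0158). Their relatives SNO2 and SNZ2, and SNO3 and SNZ3, which have near-identical copies, stood between −0.17 and 0.01. Over Pgk1, ANB1 and CYC1 at −0.14 and 0.26, MRM1 and HIS3 at −0.08 and −0.11, and MAL31 and MAL32 at −0.01 and 0.33 did not pass the test either (edgeR adjusted p = 0.119 to 0.97), although MAL32 was higher over the inputs, at 0.56 (edgeR adjusted p = 0.00675).

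Gene lists were chosen with earlier results of these data known, so their counts describe the members and are not independent support. Of the proteasome genes, 11 of 19 divergent windows were higher and 0 lower over Pgk1, against 12.3% and 12% of all windows, with a median log2 fold change of 0.45 against −0.05 for all windows. PRE3, a catalytic subunit of the core particle, shares its promoter with OST1, a subunit of oligosaccharyltransferase. The PRE3 window held 282 and 235 CPM in the Rvb1 pulldowns, 241 and 183 CPM in the Rvb2 pulldowns, 137 and 135 CPM in the Pgk1 pulldowns and 141, 133 and 145 CPM in the inputs, with the 4 Rvb libraries above all others. Its log2 fold change was 0.93 (SE 0.20, edgeR adjusted p = 0.0156), and that of OST1 0.93. RPT5, an ATPase of the regulatory particle, stood at 0.45 (SE 0.09, edgeR adjusted p = 0.0141), while its partner RPO31, the largest subunit of RNA polymerase III, was at 0.03 (edgeR adjusted p = 0.901). Without Rvb1 pulldown 1 the list median was 0.31 and edgeR called none of the 19 windows. The others called were PUP2, RPN13, PRE5, SCL1, RPN11, RPN8, PRE7, PUP1 and RPN12, at 0.37 to 0.88.

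Of the mitochondrial ribosomal protein genes, 13 of 35 divergent windows were higher and 0 lower by edgeR, against 12.3% and 12% of all windows. Their median was 0.33 (0.22 without Rvb1 pulldown 1). MRPS18, of the small subunit, held 289 and 253 CPM in the Rvb1 pulldowns, 273 and 196 CPM in the Rvb2 pulldowns and 141 and 130.0 CPM in the Pgk1 pulldowns, a log2 fold change of 1.01 (SE 0.22, edgeR adjusted p = 0.015). Its partner MCK1, a protein kinase of the GSK-3 family, stood at 0.97 (SE 0.21). Of the 72 divergent windows of cytosolic ribosomal protein genes, 2 were higher and 5 lower by edgeR, against 12.3% and 12% of all windows. Neither share exceeded that of all windows, and the median was −0.12, or −0.22 without Rvb1 pulldown 1. DESeq2 called 2 higher and 12 lower, against 14.2% and 16% of all windows. With the total of both tables as library size 3 were higher and 3 lower, against 18.7% and 8.3% of all windows, with a median of −0.02. RPS8B held 75.4 and 96.6 CPM in the Rvb1 pulldowns and 157 and 135 CPM in the Pgk1 pulldowns, a log2 fold change of −0.75 (SE 0.16, edgeR adjusted p = 0.015), with its partner AST2 at −0.24 (edgeR adjusted p = 0.105). RPL32 stood at −0.48 (SE 0.12), and its partner ROX3, a Mediator subunit, at −0.06 (edgeR adjusted p = 0.754). The other 3 lower windows were those of RPL24A, RPL13A and RPL37B, at −0.82, −0.38 and −0.37, and the higher ones were RPL43A and RPL3, at 0.94 and 0.41. Most of these genes have a near-identical copy, so their gene-body reads are uncertain.

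In 5 pairs both genes encode cytosolic ribosomal proteins. Of these, RPL24A and RPL30 stood at −0.82 and −0.16 and RPS16B and RPL13A at −0.31 and −0.38, with RPL24A and RPL13A alone called. The other 3 pairs, RPS22A and RPL39, RPL13B and RPS16A, and RPS15 and RPP2A, stood between −0.23 and 0.10. RPA43 and RPA190, subunits of RNA polymerase I, stood at −0.55 and −0.60 (edgeR adjusted p = 0.0708 and 0.0652). Among the 35 divergent windows of ribosome biogenesis genes, 4 were higher and 1 lower by edgeR, against 12.3% and 12% of all windows. DESeq2 called 4 higher and 5 lower, against 14.2% and 16% of all windows. Neither test called a larger share than over all windows. The median of the 35 was −0.03, −0.07 without Rvb1 pulldown 1, and above 0, at 0.07, with the total of both tables as library size. RRP12, a factor in the export of ribosomal subunits, stood at 0.51 (SE 0.12) and NOP9, a pre-rRNA binding factor, with its partner YJL009W at −0.69, at −0.68 (SE 0.17), all 3 called.

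Genes of carbon use were mixed, and their edgeR calls stand beside 12.3% of all windows as higher and 12% as lower. Of 10 divergent windows of galactose and maltose genes, 4 were higher and 1 lower, with a median of 0.19 (0.096 without Rvb1 pulldown 1). GAL3, the galactose sensor, was the lower one at −0.66 (SE 0.16, edgeR adjusted p = 0.0177), and MAL13, a maltose activator gene, was higher at 0.47 (SE 0.11, edgeR adjusted p = 0.0165) while its partner IMA1 was at 0.04. Of 8 glycolysis and fermentation windows 2 were higher, PFK2, a phosphofructokinase subunit, at 0.47 and PDC6, a minor pyruvate decarboxylase, at 0.29, with a median of 0.23 (0.14 without Rvb1 pulldown 1). CTT1, the cytosolic catalase of the stress response and partner of PDC6, stood at 0.81 (SE 0.24, edgeR adjusted p = 0.0319). Of 9 storage carbohydrate windows 2 were higher, GLC7, the catalytic subunit of protein phosphatase 1, at 0.66 and TPS3, of the trehalose synthase complex, at 0.62, and 1 lower, PIG1 at −0.34, with a median of 0.24. With the total of both tables as library size 4 were higher and none lower, against 18.7% and 8.3% of all windows. None of the 10 chaperone windows was called by edgeR or DESeq2 (1 higher at an unadjusted p under 0.05, which 20.6% of all windows reached as higher and 22.2% as lower), with a median of −0.01, which was −0.04 without Rvb1 pulldown 1 and above 0, at 0.11, with the total of both tables as library size.

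The remaining lists had at most 3 calls each under TMM scaling, where 12.3% of all windows were higher and 12% lower. Of 15 divergent windows of SWR1 and INO80 complex genes 3 were higher: SWR1, IES1, an INO80 subunit gene at 0.80 (SE 0.17, edgeR adjusted p = 0.015), and YAF9 at 0.29. That is a larger share than over all windows, but 16.9% of all divergent windows were higher, and SWR1 is in the highest pair called at both windows. The median of these 15 was 0.18 (0.149 without Rvb1 pulldown 1). The 10 histone windows had a median of 0.41 and no call over Pgk1 by edgeR or DESeq2. In edgeR 2 of them were higher at an unadjusted p under 0.05, which 20.6% of all windows reached as higher. HTZ1, the H2A.Z gene, stood at 0.52 (edgeR adjusted p = 0.115). Of 16 respiration windows 1 was higher, ATP16, an ATP synthase subunit gene, at 0.33, with a median of 0.22. Of 41 amino acid synthesis windows 1 was higher, THR1, the homoserine kinase gene, at 0.30, with a median of 0.09. Without Rvb1 pulldown 1 the respiration median was 0.043 and that of amino acid synthesis 0.051. With the total of both tables as library size, 6 SWR1 and INO80 complex, 3 respiration and 6 amino acid synthesis windows were higher. Under that scaling 18.7% of all windows were higher, and the amino acid synthesis median was 0.20.

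**Figure D4:**
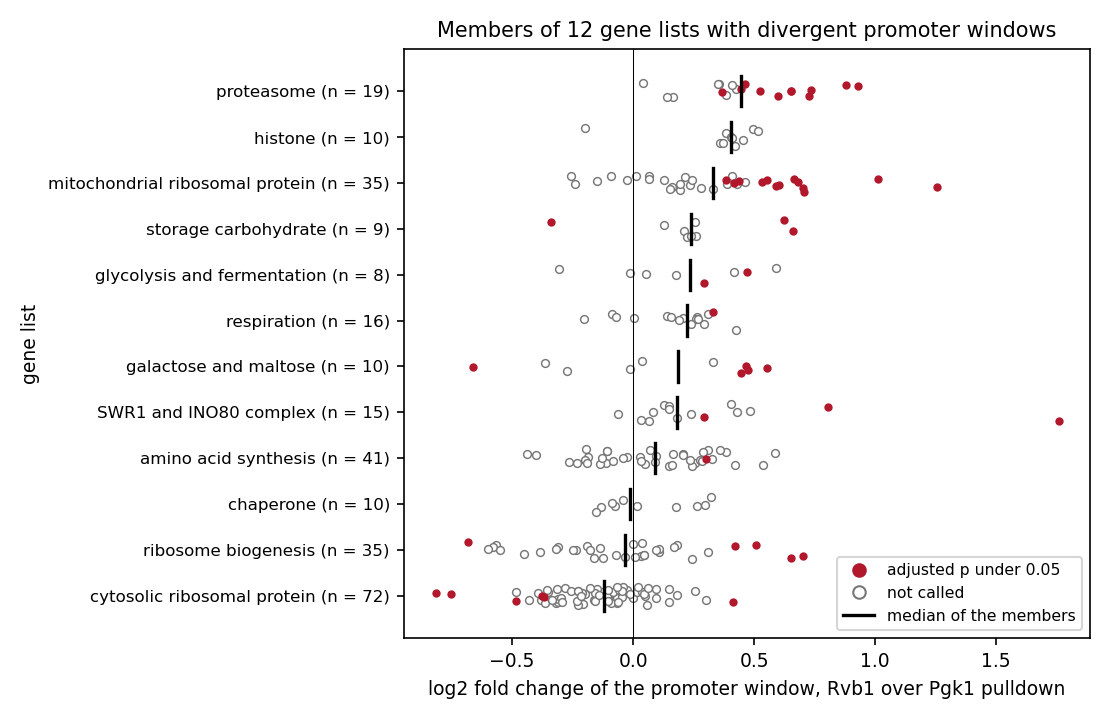
Log2 fold change of the promoter window, Rvb1 over Pgk1 pulldown (horizontal axis), for each member of 12 gene lists with a divergent window, with filled points at an adjusted p under 0.05 and bars at the median of each list. Proteasome (median 0.45), histone (0.41) and mitochondrial ribosomal protein (0.33) windows lie to the right of 0, and cytosolic ribosomal protein windows (−0.12) spread to the left.

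The second comparison asks the same of Rvb2. Here edgeR called 0 windows of any class, 0.0% of 7034, while DESeq2 called 86 divergent windows, 78 higher and 8 lower, against 1.64% and 0.455% of all windows. Other fits leaned the other way: with the pulldowns alone edgeR called 1 higher and 5 lower (0.327% of all windows were called), and without Pgk1 pulldown 2 it called 0 higher and 30 lower (1.54% of all windows). At an unadjusted p under 0.05, 434 divergent windows were higher and 165 lower, 13.6% and 5.18%, against 9.99% and 7.45% of all windows. Among same-strand windows 220 were higher and 185 lower. The median log2 fold change was 0.01 at divergent and −0.04 at same-strand windows, a gap of 0.057 with an SD of 0.039 between pulldowns. Both windows passed at that unadjusted level in the same direction in 134 pairs as higher and 27 as lower, of 1594 divergent pairs, and in 32 and 23 of 2742 tandem pairs.

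The Rvb2 values of the named pairs are set beside those of Rvb1, the 2 comparisons sharing the Pgk1 libraries. At MSS51 and QRI5 Rvb2 stood at 1.01 (SE 0.25) and 1.07 (SE 0.27). At UFD2 and RBS1 it stood at 1.07 and 0.87, and at KRE1 and VNX1 at 0.96 and 0.95. These 3 and RQC1 with SWR1 were the 4 highest pairs named by rule for Rvb2, none with an edgeR adjusted p below 0.188. The lowest were SNO4 with ERR3, at −1.99 and −1.68, PAU11 with YGL260W, at −1.67 and −1.29, and AAD4 with YDL242W, at −0.60 and −1.06, each of which has a window with unlike inputs. Rvb2 pulldown 1 stood above Rvb2 pulldown 2 at each of the 8 highest Rvb1 pairs, for example 379 and 179.5 CPM at SLK19.

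Rvb1 and Rvb2 themselves were not told apart at divergent windows. In their direct comparison edgeR called 0 windows, 0.0% of all tested, DESeq2 called 0 divergent windows and 0.0142% of all, and 166 divergent windows passed an unadjusted p of 0.05, 86 of them higher for Rvb1 and 80 lower, against 2.46% and 3.45% of all windows. A p that misses the threshold does not show that the proteins are recovered alike. The median log2 fold change between them was 0.03.

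Against the inputs rather than Pgk1, Rvb1 was higher at 964 divergent windows and lower at 738, of 3187 (edgeR, adjusted p under 0.05), 30.2% and 23.2% against 25.4% and 26.4% of all windows. In all, 53.4% of divergent windows and 51.8% of all windows were called. Same-strand windows were higher at 622 and lower at 780. The median log2 fold change was 0.04 at divergent and −0.05 at same-strand windows. Without Rvb1 pulldown 1 edgeR called 0 of these divergent windows (927 at an unadjusted p under 0.05), and with each pulldown set against its own strain's input it called 12, all lower, against 0.782% of all windows. Rvb2 over the inputs gave 0 edgeR calls, 0.0% of all windows, while DESeq2 called 717, which is 22.5% of divergent windows against 21.3% of all windows. Unadjusted p-values under 0.05 were reached by 703 divergent windows as higher and 551 as lower, against 20.1% and 17.9% of all windows. The control protein itself gave 0 edgeR calls over the inputs, while DESeq2 called 60 divergent windows, which is 1.88% of them against 4.5% of all windows. At an unadjusted p under 0.05 it had 129 divergent windows higher and 72 lower, against 7.93% and 1.69% of all windows.

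In the gene bodies downstream of divergent promoters the lean towards higher values was smaller. Over Pgk1, Rvb1 was higher at 262 and lower at 220 of 3188 gene bodies (edgeR, adjusted p under 0.05), 8.22% and 6.9% against 6.7% and 7.08% of all gene bodies. Their median log2 fold change was −0.02. Gene bodies of same-strand genes were higher in 120 and lower in 217 cases, 4.38% and 7.91%, with a median of −0.09. Divergent genes thus stood above same-strand genes in the gene bodies too, so the difference between the classes is not one of promoter windows alone. For Rvb2 edgeR called 0 gene bodies, with 223 divergent ones higher and 154 lower at an unadjusted p under 0.05, against 5.7% and 5.1% of all gene bodies.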

How the data were processed

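Read counts per promoter window of 500 bp and per gene body were deposited by the authors as 2 tables of raw counts for 9 libraries of 75-base single-end reads, per the labels' protocols and the file headers. The submitters' processing notes name FastQC, Bowtie2, SAMtools, Picard, deepTools and bedtools without their roles. Nothing used here states the genome build, where a window starts relative to its gene, or how duplicates were handled. The members, gene lists and tests were chosen with earlier results of these data known. Windows were tested with edgeR 4.0.16 (filterByExpr, TMM, quasi-likelihood F-test, R 4.3.3) in 1 fit of 4 groups, namely the Rvb1, Rvb2 and Pgk1 pulldowns and the 3 inputs, with p-values adjusted over all windows and a threshold of 0.05. Standard errors were derived from the p-values. DESeq2 1.42.0, other scalings and filters, own-strain inputs, a correction for the count ceiling, and leaving out each library were tried as alternatives. Within-pair ratios of counts and log2 ratios used a prior of 1. The edgeR step and the pair rule were tested on simulated data. Gene names and neighbours came from RefSeq's R64 table. Named pairs were the 8 highest and 6 lowest by mean log2 fold change with both windows called for Rvb1. For Rvb2 they were the 4 highest and 3 lowest at an unadjusted p under 0.05. Also named were the 4 most split pairs, 12 pairs looked up by name, and the 2 members with the smallest p of each list. No sequence or distance was used here, so the motif search and the distances planned at the start were not run. Totals of counts per library limit precision through counting error and the spread between 2 pulldowns.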

Additional observations from a re-analysis of the deposited data

How the results depend on the processing

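The gap between the median log2 fold changes of divergent and same-strand windows stayed above 0 under every alternative tried. For Rvb1 over Pgk1 it was 0.065 to 0.129 when 1 library was left out. For Rvb2 over Pgk1 it was 0.033 without Rvb2 pulldown 1 and 0.098 without Rvb2 pulldown 2, the 2 ends of the range. For Rvb1 over Pgk1, 5.33% of divergent and 6.23% of all windows were called with the pulldowns alone. With the Rvb-strain inputs averaged these shares were 11% and 10.4%, and for Rvb1 over the inputs 30.3% and 28.2%. For Rvb2 over the inputs they were 7.56% and 7.44% with the total of both tables as library size, and 22.5% and 21.3% by DESeq2. Counts from fits that left 1 pulldown in a group describe instability only. The number of divergent windows called was far less stable than the gap between medians, and the cause was not tested. For Rvb1 over Pgk1 (816 called) it was 170 with the pulldowns fitted alone, 0 with each pulldown against its own input, 352 with the inputs of the Rvb strains averaged as 1 library (an alternative chosen after seeing the data), and 0 (without Rvb1 pulldown 1) to 1424 (without Rvb1 pulldown 2) when 1 library was left out. For Rvb1 over the inputs (1702 called) it was 12 with own inputs, 965 with averaged inputs and 0 (without Rvb1 pulldown 1) to 1986 with 1 library left out, with 989 to 1053 when that library was an input. For Rvb2 over the inputs (0 called) it was 241 with the total of both tables as library size, 717 by DESeq2 and 0 to 1016 with 1 library left out, with counts above 0 without either Rvb1 pulldown, either Pgk1 pulldown or Rvb2 pulldown 2. For Rvb2 over Pgk1 (0 called) it was 86 by DESeq2 (78 higher, 8 lower), 6 with the pulldowns alone (1 higher, 5 lower) and 0 to 30 with 1 library left out, the 30 all lower. For Pgk1 over the inputs (0 called) it was 60 by DESeq2 and 0 to 288 with 1 library left out, and for Rvb1 against Rvb2 (0 called) 0 to 65, the latter without Rvb1 pulldown 2.

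The labels number the pulldowns 1 and 2 but do not say that a number marks a shared culture or day, so the replicate block is only an alternative. Deviations of same-numbered pulldowns correlated at 0.73 between Rvb1 and Rvb2, 0.23 between Rvb1 and Pgk1 and 0.35 between Rvb2 and Pgk1. With the block, fitted to the pulldowns alone, 719 divergent windows were called for Rvb1 over Pgk1, which is 22.6% against 21.6% of all windows. For Rvb2 over Pgk1 13 were called (1 higher, 12 lower), which is 0.408% against 0.526%, and 0 for Rvb1 against Rvb2. Rvb1 and Rvb2 inputs differed by little more than counting noise under the ceiling (0.578 against 0.461 expected per degree of freedom) and were kept as 2 libraries.

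Of the 50 named windows called for Rvb1 over Pgk1, none remained called without Rvb1 pulldown 1 or with own inputs, 18 remained without Pgk1 pulldown 2 and 35 to 40 without 1 of the inputs. Windows near 0 changed sign. With the total of both tables as library size the log2 fold changes of MAL31, MRM1, SNO3 and SNZ2 were 0.094, 0.023, 0.0098 and 0.049, and with the ceiling corrected that of SNZ3 was −0.0047. With 1 library left out MAL31 ranged from −0.38 to 0.28, SNO3 from −0.18 to 0.021 and SNZ3 from −0.022 to 0.070. SNO4 was 0.030 with each pulldown against its own input. Pgk1 pulldown 1 had the fewest promoter counts of the 9 libraries (806134) and Pgk1 pulldown 2 the most of the pulldowns (2516799), so counting error differs most within that group.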
